A study of Mus musculus with 38 samples.

Results

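The loci of 4 genes that encode subunits of the transcription factor AP-1, Fosb, Fosl2, Jun and Junb, were examined in chromatin immunoprecipitation sequencing (ChIP-seq) peak lists from cultured mouse cortical neurons. Every deposited peak or position lying within 100 kb of one of these genes in mouse genome build mm9 was taken, so that membership depended on position and not on any measured value. The 22 AP-1 peak lists held 61842 merged sites in all, of which 62 lay at these loci: 20 at Fosb, 18 at Junb, 14 at Fosl2 and 10 at Jun. The gene positions used for mm9 were approximate, and their lengths differed from those of the RefSeq genes by 23 bp for Fosb, 60 bp for Junb, 113 bp for Jun and 631 bp for Fosl2. Distances below are from the approximate 5′ end of the gene, with negative values upstream. Peaks are assigned by distance alone, and other genes lie near: in RefSeq order (GRCm38.p6) Fosb lies between Rtn2 and Ercc1, Fosl2 between Babam2 and Plb1, Jun between Mysm1 and Fggy, and Junb between Prdx2 and Hook2.

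All neurons came from the cortex of C57BL/6 embryos taken at embryonic day 16.5, and were studied at 7 days in vitro. All groups, controls included, were first silenced overnight with 1 µM tetrodotoxin (TTX), which blocks sodium channels, and 100 µM DL-AP5, which blocks NMDA receptors. Neurons were then left unstimulated or depolarised with KCl for 2 h. The series has 38 samples, of which 12 are input DNA, which was not analysed here. Biological samples 1 and 2 gave H3K27ac (antibody ab4729), and the authors called peaks on both merged, so each condition has 1 list and no replicate. Biological samples 3 and 4 gave c-Fos with the antibodies sc52 and sc7202 and FosB with sc48, each unstimulated and after KCl, and sample 4 alone gave JunB with sc46. Biological samples 5 and 6 were all given KCl and served for knockdown: each shRNA targeting c-Fos (ChIP with sc52) or FosB (ChIP with sc48) is set against a control shRNA with the same antibody. Neuronal markers were not analysed here. Whether the shRNAs lowered their targets was not analysed here either.

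AP-1 binds DNA as a dimer of basic leucine zipper proteins, usually 1 of the Fos family with 1 of the Jun family. Members of both families are products of immediate early genes, which neurons transcribe within minutes of strong activity without needing new protein. FosB and Fosl2 (also called Fra-2) are Fos family members, and Fosb also gives a truncated splice form, ΔFosB, that is long-lived in neurons. Jun (c-Jun) and JunB are partners of the Fos proteins, and Jun proteins can also pair among themselves. H3K27ac, acetylation of lysine on histone H3, marks active promoters and enhancers.

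The length of the AP-1 lists ranged from 557 peaks for c-Fos sc7202 without stimulation (biological sample 4) to 28885 for c-Fos sc7202 after KCl (sample 3). Lists of sample 3 were longer than the matching lists of sample 4, and those of sample 5 longer than those of sample 6, in every group with both. The lists hold no read counts, so the depth of each library is unknown. A site with no peak in a list is one where nothing passed the authors' threshold in that library.

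c-Fos peaks were more numerous at these AP-1 genes after KCl. Unstimulated libraries held 8 and 5 c-Fos peaks over the 4 loci with sc52 (biological samples 3 and 4) and 6 and 1 with sc7202. The KCl libraries held 38 and 9 with sc52 and 35 and 19 with sc7202. The groups did not overlap, at 5.00 ± 2.94 (SD, n = 4) without stimulation and 25.2 ± 13.7 (SD, n = 4) after KCl. Such separation was also seen in 26.8% of 10575 genome bins of 200 kb with any c-Fos peak. The share among regions as large as the 4 windows together, 835 kb, was not counted. The difference of 20.2 peaks had p = 0.0286 by a two-sided exact permutation test of the library labels, the smallest p this design allows. The 4 libraries of a group came from 2 biological samples and are not 4 separate cultures. With antibody and biological sample as a block, all 4 pairs were higher after KCl and the exact sign-flip p was 0.125, again the smallest possible. Each list reduced to its 557 best-scoring peaks, the length of the shortest, left a difference of 1.00 peak (exact permutation p = 0.714).

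At the Fosl2 locus the c-Fos lists held 0 and 0 unstimulated peaks with sc52 and 1 and 0 with sc7202, against 8 and 2 and 7 and 5 after KCl. It was the one locus of the 4 where the groups did not overlap, and 26.8% of 10575 genome bins of 200 kb with any c-Fos peak showed the same separation. At the Jun locus the counts were 2 and 1 (sc52) and 0 and 0 (sc7202) without stimulation, and 6 and 2 and 6 and 5 after KCl. The Junb locus held 2 and 2 and 1 and 0 unstimulated peaks and 13 and 2 and 9 and 4 after KCl. At the Fosb locus 4 and 2 and 4 and 1 unstimulated peaks stood against 11 and 3 and 13 and 5. At Jun, Junb and Fosb the sc52 library of sample 4 after KCl lay within the range of the unstimulated libraries. The mean differences were 5.25 peaks at Fosl2, 4.00 at Jun, 5.75 at Junb and 5.25 at Fosb. Exact permutation p-values were 0.0286, 0.0571, 0.0857 and 0.114 in that order (n = 4 and 4), and all 4 became 0.114 after Benjamini-Hochberg adjustment over the loci, so no single locus passed the threshold of 0.05. With lists of the same length the differences were 1.00 at Fosl2, 0 at Jun, 0.750 at Junb and -0.750 at Fosb, where the direction turned.

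**Figure D1:**
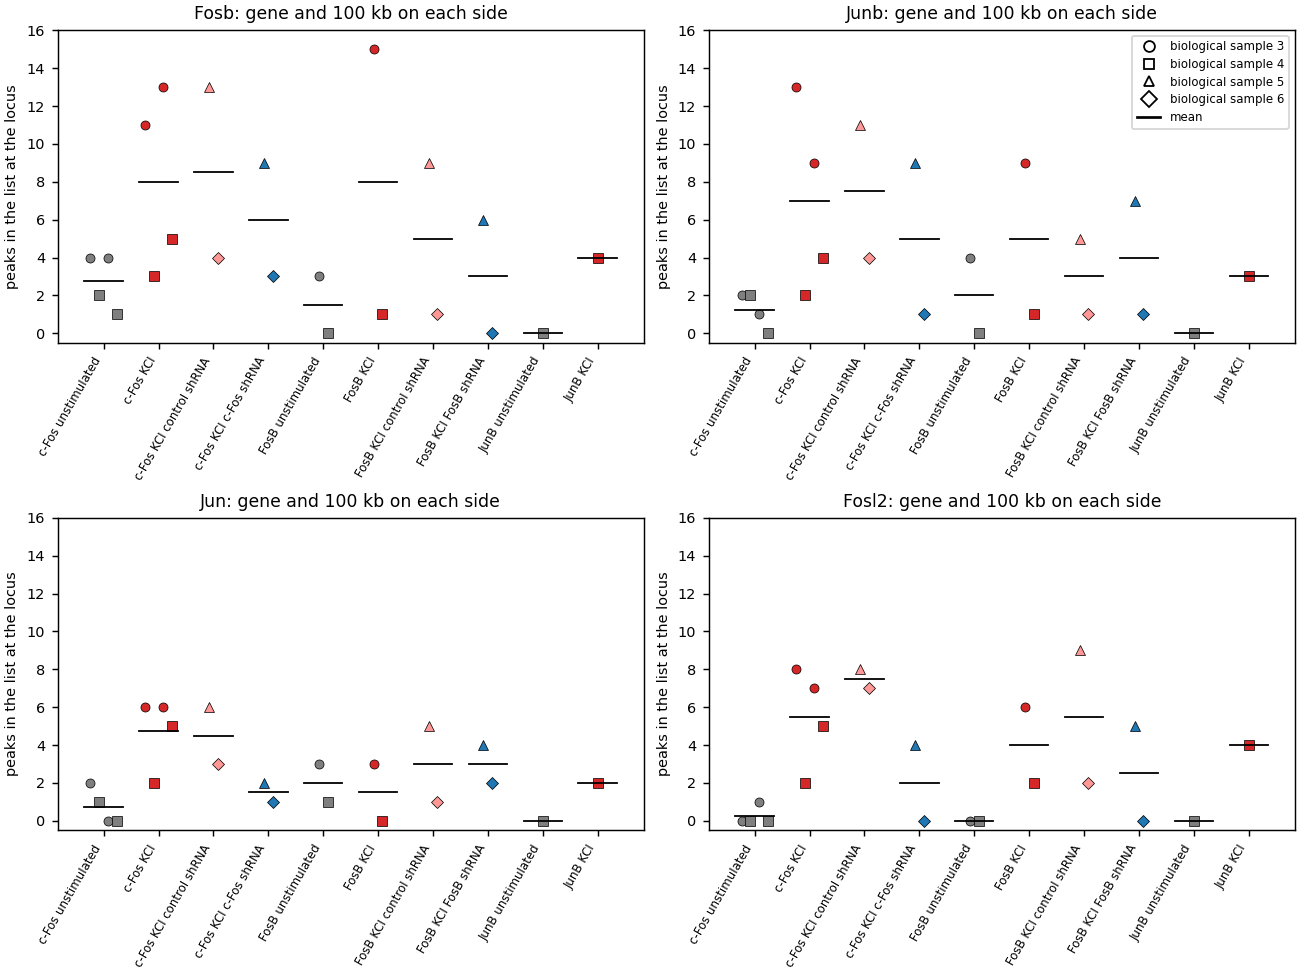
Number of peaks in each AP-1 list (y axis) at each locus, by protein and condition (x axis); each point is 1 library, its shape gives the biological sample and the bar is the mean. c-Fos libraries after KCl hold up to 13 peaks at Fosb and at Junb, and libraries of samples 4 and 6 mostly lie below those of samples 3 and 5.

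Peak density at the loci was set against that of the genome. In the 4 unstimulated c-Fos lists the peak density over the loci was 5.69 to 10.8 times that of the whole genome, and in the 4 KCl lists 3.70 to 5.39 times. The ratio was lower after KCl in all 4 pairs of c-Fos libraries, so the higher c-Fos counts at the loci went with longer lists. In the sc7202 pair of sample 4 the unstimulated ratio of 5.69 rests on 1 peak. For FosB the ratio was higher after KCl in both samples, and the difference from c-Fos was not tested. It was 7.5 (sample 3) and 1.55 (sample 4) without stimulation and 9.61 and 2.59 after KCl. In sample 4 the 2 ratios rest on 1 and 4 peaks. In sample 3 some of the 33 KCl peaks shared a merged site, as at +81.6 kb of Fosb, so the ratio does not count sites. The FosB ratio was 3.87 and 1.12 with control shRNA and 7.02 and 1.33 with FosB shRNA (samples 5 and 6). For JunB the ratio was 0 without stimulation and 2.13 after KCl.

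FosB peaks at the loci varied strongly between biological samples. FosB lists held 10 peaks (sample 3) and 1 peak (sample 4) without stimulation and 33 and 4 after KCl. Both samples were higher after KCl, but sample 3 without stimulation exceeded sample 4 after KCl, so the groups overlapped (difference 13 peaks, exact permutation p = 0.667, where 2 against 2 libraries cannot go below 0.333). By locus, the KCl lists of FosB held 15 and 1 peaks at Fosb, 9 and 1 at Junb, 3 and 0 at Jun and 6 and 2 at Fosl2. The unstimulated FosB lists held 3 and 0 at Fosb, 4 and 0 at Junb, 3 and 1 at Jun and 0 and 0 at Fosl2. At Jun neither sample had more FosB peaks after KCl. The JunB list of sample 4 held 0 peaks at the loci without stimulation and 13 after KCl: 4 at Fosb, 4 at Fosl2, 3 at Junb and 2 at Jun. With 1 JunB library per condition there is no test. The JunB list grew from 3126 to 19346 peaks over the whole genome.

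H3K27ac covered more of the AP-1 gene loci after KCl. The KCl list had 33 peaks at the loci and the unstimulated list 25. Their summed width was 115 kb and 72.0 kb, while the whole lists covered 81.1 Mb and 80.2 Mb. Of the 33 KCl peaks, 9 (27.3%) overlapped no unstimulated peak, against 18.1% of all 29418 KCl peaks. Of the 25 unstimulated peaks, 0 lacked a KCl peak, against 20.2% of all 30239. The 9 peaks found after KCl alone were 4 at Fosb, 2 at Junb, 2 at Fosl2 and 1 at Jun, and 7 of them were in the authors' list of distal peaks. These are values of 1 merged list per condition, so their spread between cultures is not known.

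At the 5′ ends the 4 genes differed. Jun had broad acetylation in both conditions, with a peak of 5899 bp without stimulation and 6056 bp after KCl, a width ratio of 1.03. Fosb had a narrow unstimulated peak of 1506 bp (chr7:19893055-19894560, number 24186 of 30239 in its list) lying inside the gene, and a KCl peak of 3673 bp (chr7:19893013-19896685, number 3313 of 29418) that reached past the 5′ end. The ratio of 2.44 was matched or exceeded by 0.117% of 10249 non-distal KCl peaks with 1 unstimulated partner, whose median ratio was 1.06 (quartiles 0.989 and 1.15). Fosl2 had an unstimulated peak of 4675 bp at the gene and a separate 1435 bp peak just upstream, and 1 KCl peak of 8005 bp (chr5:32434440-32442444) spanned both. Junb had no unstimulated peak at the gene, and a KCl peak of 6750 bp (chr8:87497808-87504557, number 1845 of 29418) covered the whole gene. Only 4.65% of the 10862 non-distal KCl peaks lacked an unstimulated peak. Places are by the authors' peak-caller score, which describes a peak within its own list, so places in 2 lists show no change.

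**Figure D2:**
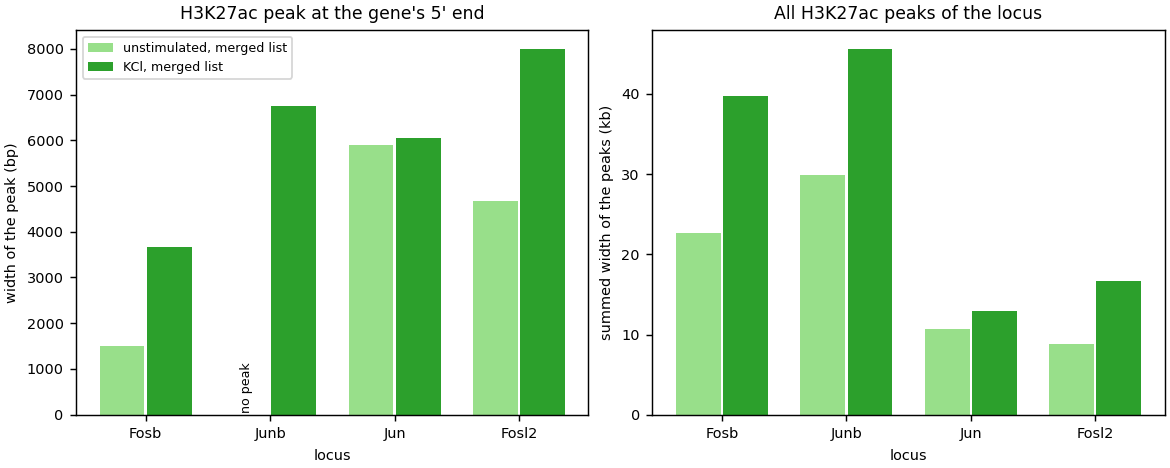
Left, width in bp of the H3K27ac peak at the 5′ end of each gene; right, summed width in kb of all H3K27ac peaks of each locus; light bars are the unstimulated and dark bars the KCl list, each called on 2 merged biological samples, so there are no error bars. The Junb gene has a peak (6750 bp) after KCl alone, and Jun has nearly equal widths (5899 and 6056 bp).

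Away from the genes, the largest width ratios among the paired peaks of these loci were upstream of Fosb and Junb. A KCl peak centred at -33.9 kb of Fosb (chr7:19926147-19931884) was 2.57 times as wide as its unstimulated partner, a ratio reached by 0.107% of non-distal pairs. A distal peak centred at -6.98 kb of Junb widened from 2296 bp to 4908 bp (chr8:87507226-87512133), a ratio of 2.14. Fosb also had a distal KCl peak over its 3′ end (chr7:19885583-19888257, 2675 bp) where the unstimulated list had none. Jun had 1 peak found after KCl alone, centred at -52.8 kb (chr4:94771673-94773588, 1916 bp).

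The promoter sequences are shown because AP-1 peaks were listed within 1 kb of all 4 start sites, as described after them. Such a peak need not reach the printed bases. At Jun, both unstimulated sc52 peaks and the FosB peak of sample 3 after KCl (chr4:94718594-94719025) lay wholly inside the gene. Which peaks cover the printed bases was not analysed here, so the motifs do not describe the bound DNA. RefSeq sequences (assembly GRCm38.p6) were matched for all 4 genes. They give the 250 bases before the transcription start on the gene's own strand, 5′ to 3′, with motif matches in capitals. The intervals are chr7:19310046-19310295 (minus strand) for Fosb, chr5:32136222-32136471 (plus strand) for Fosl2, chr4:95052223-95052472 (minus strand) for Jun and chr8:84978749-84978998 (minus strand) for Junb. These GRCm38.p6 coordinates cannot be set against the mm9 peaks by number.
Fosb: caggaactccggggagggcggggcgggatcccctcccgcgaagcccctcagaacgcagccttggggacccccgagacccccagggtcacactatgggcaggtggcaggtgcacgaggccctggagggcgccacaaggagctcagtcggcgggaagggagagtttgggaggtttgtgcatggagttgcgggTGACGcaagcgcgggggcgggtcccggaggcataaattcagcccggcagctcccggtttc
Fosl2: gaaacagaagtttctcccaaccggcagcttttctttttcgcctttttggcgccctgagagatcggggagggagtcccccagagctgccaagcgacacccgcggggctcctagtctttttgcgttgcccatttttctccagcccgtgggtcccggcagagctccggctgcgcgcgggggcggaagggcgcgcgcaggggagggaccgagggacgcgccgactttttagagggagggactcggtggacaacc
Jun: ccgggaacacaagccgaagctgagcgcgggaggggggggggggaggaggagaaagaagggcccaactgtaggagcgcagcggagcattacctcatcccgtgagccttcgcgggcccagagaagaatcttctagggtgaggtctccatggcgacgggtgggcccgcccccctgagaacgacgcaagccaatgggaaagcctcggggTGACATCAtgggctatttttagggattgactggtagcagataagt
Junb: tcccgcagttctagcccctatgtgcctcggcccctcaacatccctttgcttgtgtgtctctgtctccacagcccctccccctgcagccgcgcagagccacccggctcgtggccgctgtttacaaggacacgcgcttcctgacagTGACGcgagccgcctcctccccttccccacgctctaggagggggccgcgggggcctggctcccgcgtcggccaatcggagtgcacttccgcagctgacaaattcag
The motifs searched on both strands were TGANTCA (the AP-1 element), TGACNTCA (the element bound by Jun with ATF proteins and by CREB), TGACG (a CREB/ATF element, counted also where it overlaps a TGACNTCA match) and the CArG box (the serum response factor element). Jun held TGACATCA at -45 to -38 from the start, and 7.49% of 32851 RefSeq promoters of the same length held TGACNTCA. Fosb held TGACG at -60 to -56 and Junb at -106 to -102, a motif found in 17.8% of promoters. None of the motifs was in the 250 bases of Fosl2. TGANTCA was in 0 of the 4 promoters and in 6.75% of all, and the CArG box in 0 of 4 and in 1.47% of all. The 4 promoters were GC-rich, at 68.8% (Fosb), 64.4% (Fosl2), 61.2% (Jun) and 66.4% (Junb), against a median of 52.4%.

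AP-1 peaks within 1 kb of the 5′ end were counted next, over 6 c-Fos, 4 FosB and 1 JunB lists after KCl, control shRNA included. Fosl2, whose printed promoter held none of the motifs, was the gene with a peak in all 6 c-Fos, all 4 FosB and the JunB list. The 6 c-Fos peaks stood within the best 0.872% to 25.8% of their lists, the 4 FosB peaks within the best 0.270% to 53.9%, and the JunB peak (chr5:32437646-32438726) within the best 4.00%. Of the 10862 non-distal KCl H3K27ac peaks, 2.81% were overlapped in all 6 c-Fos lists, 0.976% in all 4 FosB lists and 0.672% in all 11. These shares count overlap anywhere in an H3K27ac peak and not within 1 kb of a 5′ end. The share over all start sites was not counted. Without stimulation 1 of 4 c-Fos lists and 0 of 2 FosB lists had a peak at the Fosl2 5′ end. Among the 4 genes, the Fosl2 start was the one with a peak in the most KCl lists.

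Jun had a 5′ peak in 5 of 6 c-Fos and 3 of 4 FosB lists after KCl and not in the JunB list. It was also listed without stimulation, in both sc52 lists (best 36.6% and 57.9%) and in 1 of 2 FosB lists (best 10.1%), but in neither sc7202 list. After KCl the FosB peak of sample 3 (chr4:94718594-94719025) was number 57 of 10898. Junb had a 5′ peak in 5 of 6 c-Fos and 2 of 4 FosB lists after KCl. The FosB peak of the control shRNA library of sample 5 spanned the gene over 3716 bp (chr8:87499362-87503077) and was number 47 of 22933. No unstimulated c-Fos list and 1 of 2 unstimulated FosB lists had a 5′ peak at Junb. Fosb had the fewest, in 3 of 6 c-Fos and 2 of 4 FosB lists after KCl, all from samples 3 and 5. Of the unstimulated lists, 2 of 4 for c-Fos and 0 of 2 for FosB had one. Both unstimulated c-Fos peaks lay in the site at +1.43 kb, inside the gene, and only reached into the 1 kb limit. The site over the Fosb 5′ end itself, centred at -0.305 kb, was in 5 of 11 KCl lists and in no unstimulated list. At least 1 c-Fos list after KCl overlapped 65.5% of non-distal KCl H3K27ac peaks. At least 1 FosB list after KCl overlapped 49.8%, and at least 1 unstimulated c-Fos list 25.3%. Overlap was again counted anywhere in the H3K27ac peak, so these are not shares of start sites. The JunB list after KCl overlapped 7.95% of the non-distal KCl H3K27ac peaks. Within 1 kb of the 5′ ends of these genes it had a peak at Fosl2 alone. Away from the starts, JunB peaks also overlapped non-distal KCl H3K27ac peaks. They lay at +81.6, +37.6 and -35.2 kb of Fosb, +42.4 and +44.8 kb of Junb and -1.96 kb of Fosl2.

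**Figure D3:**
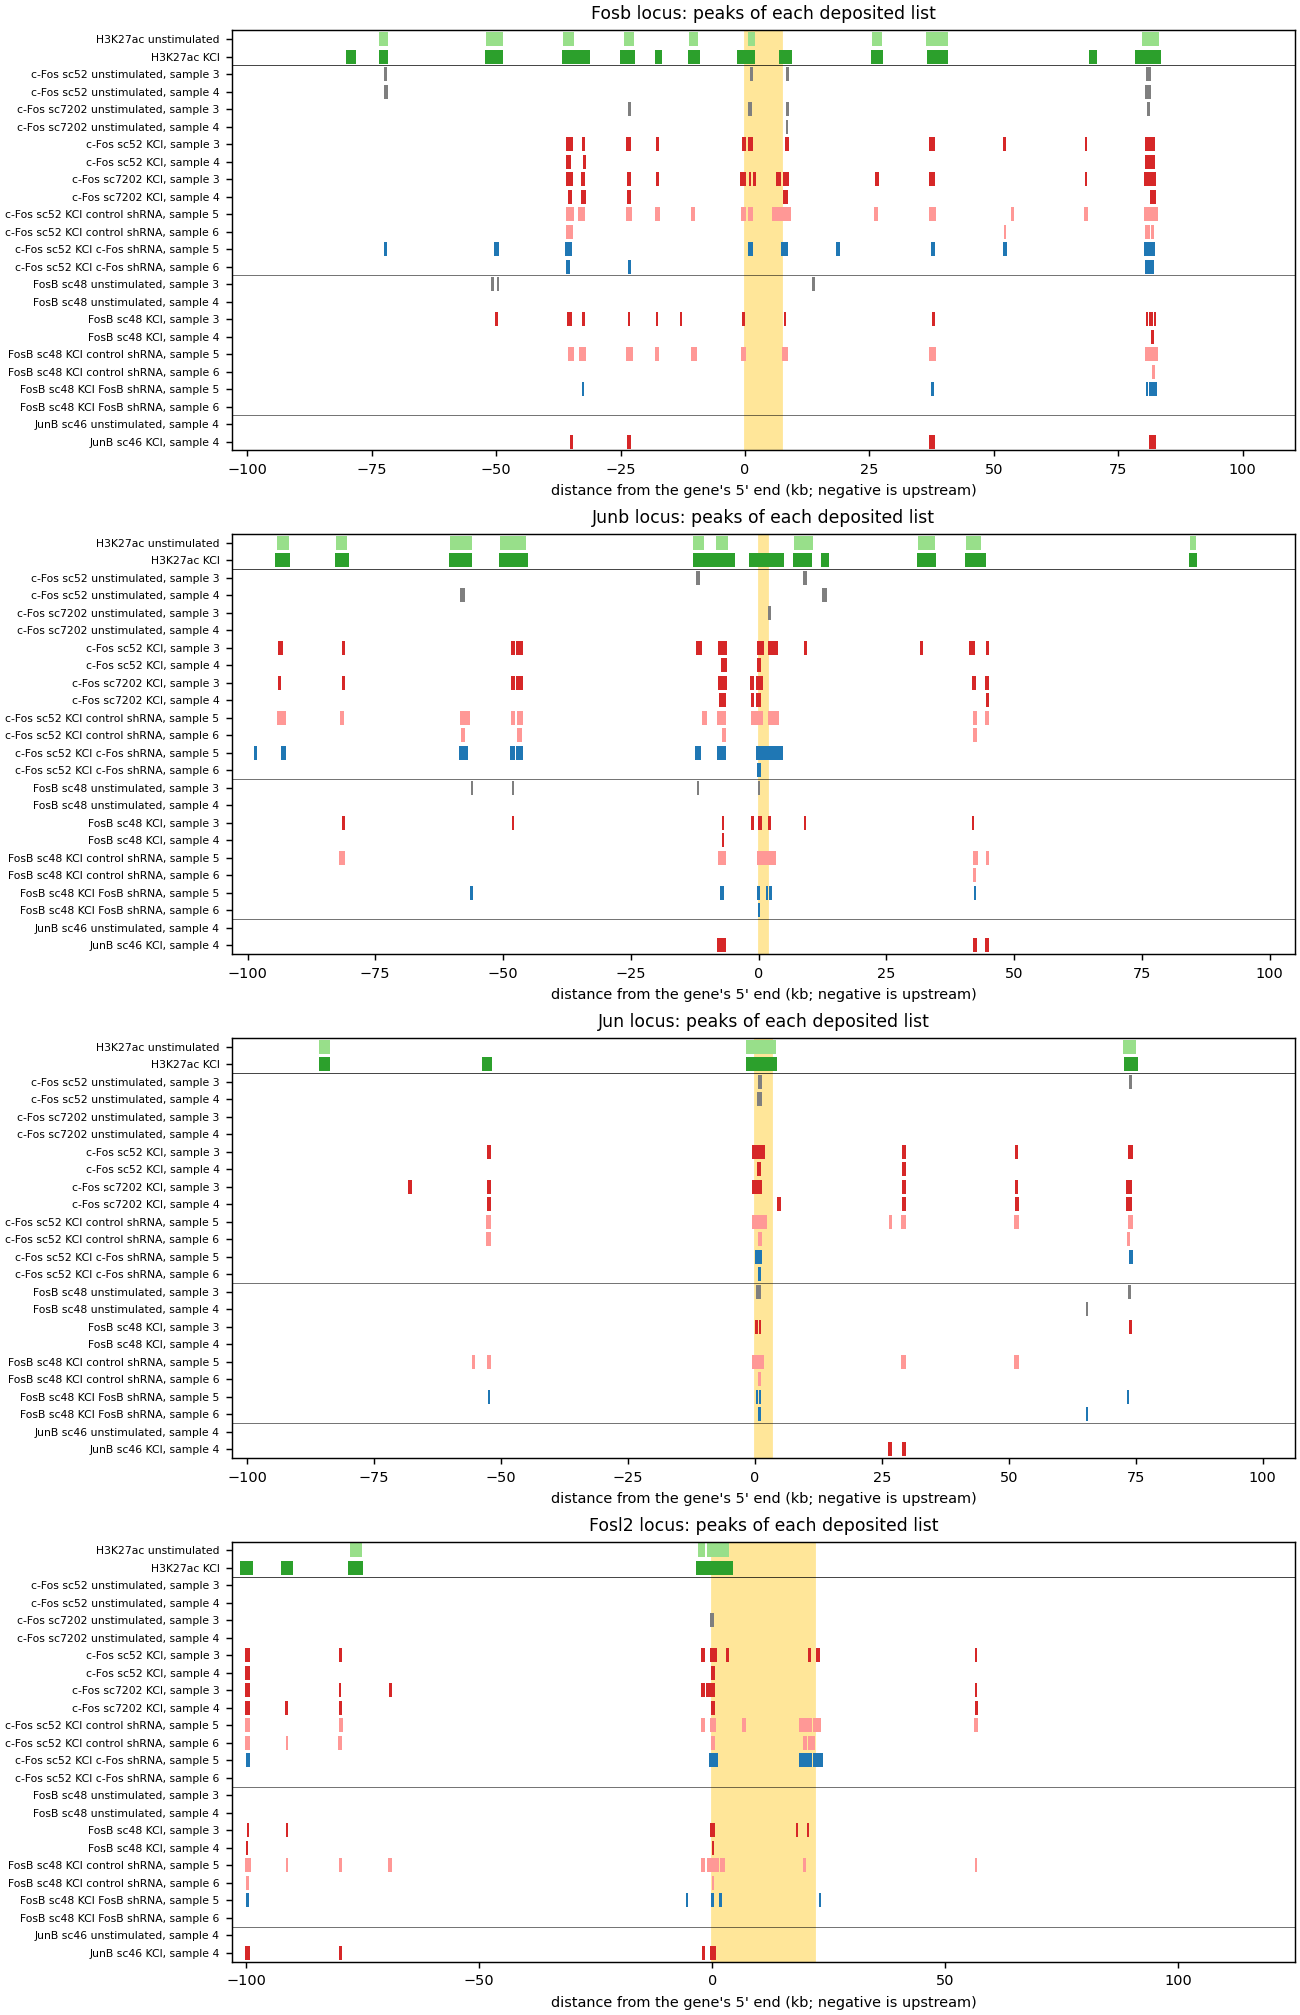
Peaks of the 2 H3K27ac lists and the 22 AP-1 lists (rows) at each locus against distance in kb from the gene's 5′ end; the yellow band is the gene, green bars are H3K27ac, grey unstimulated, red KCl, pink control shRNA and blue target shRNA (peaks narrower than 0.5 kb are drawn 0.5 kb wide). Stacks of red and pink bars mark sites shared by many KCl lists, as at -99.6 kb of Fosl2 and -7.13 kb of Junb.

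Of the 62 merged sites, 52 were in at least 1 of the 11 KCl lists with no target shRNA. Of these, 17 were in 6 or more lists (32.7% against 21.9% of 54101 such sites in the genome), 14 were in 1 list, and 3 were in all 11 (5.77% against 2.58%). Both shares rest on few sites and were not tested. An unstimulated list also held 13 of the 52 (25% against 12.7%), and 35 overlapped a KCl H3K27ac peak by at least 1 bp (67.3% against 33.7%). By locus, all 14 KCl sites at Junb overlapped a KCl H3K27ac peak, 12 of 16 at Fosb, 6 of 13 at Fosl2 and 3 of 9 at Jun. The 33.7% is over sites anywhere in the genome and was not matched for H3K27ac nearby. Of the KCl H3K27ac peaks in the windows, 11 of 12 at Junb and 7 of 13 at Fosb were non-distal.

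**Figure D4:**
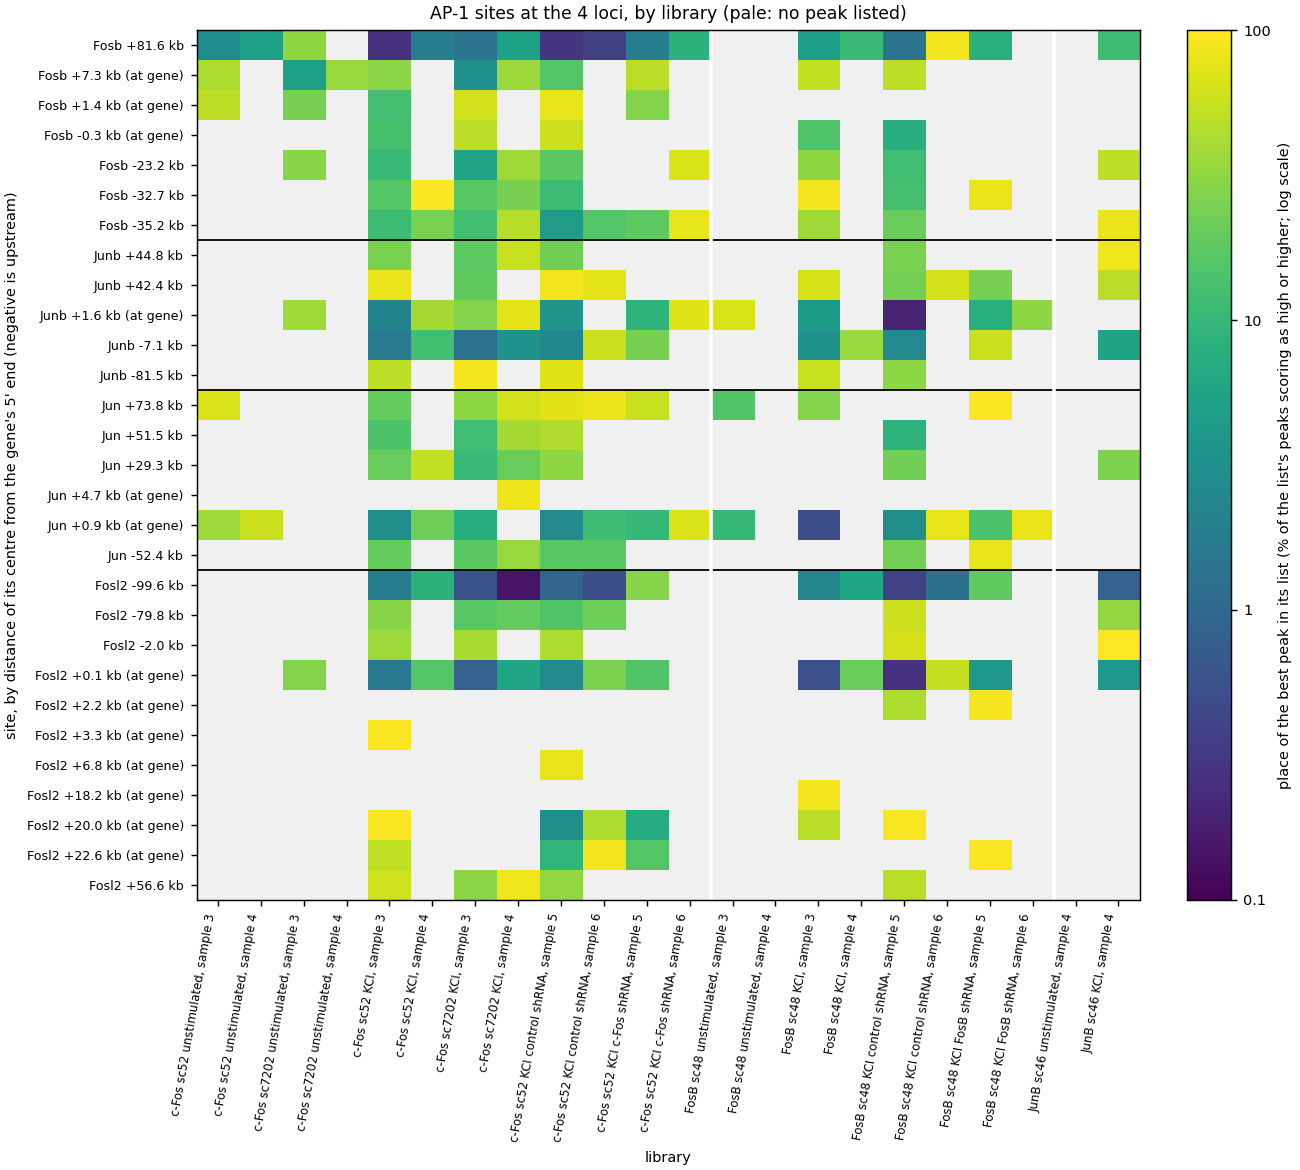
AP-1 sites that overlap a gene or the 1 kb beside it, and the 4 other sites per locus found in the most KCl lists (rows, by distance from the 5′ end), against the 22 libraries (columns); colour gives the place of the best peak in its own list on a log scale, dark being best, and pale cells have no peak. The sites at +81.6 kb of Fosb, and at -99.6 kb and the 5′ end of Fosl2, are filled in all 11 KCl columns.

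Fosb, the Fos family gene whose product was itself immunoprecipitated, was bound by FosB at its own locus, with 15 peaks in sample 3, of which 4 fell in the single merged site at +81.6 kb, and 1 in sample 4 after KCl. At the 5′ end FosB peaks were listed in sample 3 (chr7:19895226-19895566, best 15.0% of the list) and in the control shRNA library of sample 5 (best 7.89%), and not in samples 4 and 6. The site of the locus found in the most lists lay 81.6 kb downstream of the 5′ end (chr7:19812036-19814884) and was found in all 11 KCl lists. It lay inside an H3K27ac peak in both conditions, and neither peak was in the authors' distal lists. Its best peak stood within the best 0.268% (sample 3) and 1.94% (sample 4) of the KCl lists of sc52. It was also in 3 of 4 unstimulated c-Fos lists, within the best 2.89% and 5.13% for sc52 and 32.1% for sc7202, and in both c-Fos shRNA lists. No unstimulated FosB list held it, and its JunB peak stood within the best 11.8%. A site at the 3′ end of the gene (chr7:19885834-19889691) was in 3 of 4 unstimulated c-Fos lists and 6 of 11 KCl lists. Its unstimulated sc7202 peak in sample 3 (chr7:19886298-19886912) was number 90 of 1770, while the sc52 peak of the same sample was number 1584 of 3669.

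Upstream of Fosb, a site at -35.2 kb (chr7:19929372-19931267) was in all 6 c-Fos lists, 2 of 4 FosB lists and the JunB list after KCl, and in no unstimulated list. Its neighbours at -32.7 kb (chr7:19927017-19928636) and -23.2 kb (chr7:19917667-19918927) were each in 7 of 11 KCl lists. The authors' combined list of c-Fos positions had 2 entries at the locus, 1 in each of those neighbours (19927875 and 19918392). The sites at -35.2 and -32.7 kb lay inside the KCl H3K27ac peak that was 2.57 times as wide as before. The 1 JunB list after KCl had peaks at 4 sites of the Fosb locus and none at the gene itself. They lay at +81.6 kb (best 11.8% of the list), +37.6 kb (45.6%), -23.2 kb (50.6%) and -35.2 kb (81.4%).

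Fosl2, the other Fos family gene, had a far upstream site shared by every KCl list. This site at -99.6 kb (chr5:32337713-32338999) was in all 6 c-Fos, all 4 FosB and the JunB list after KCl, and in none of the 7 unstimulated lists. Among c-Fos lists its peak stood within the best 0.148% (number 24 of 16270, sc7202 of sample 4) to 8.58% (sc52 of sample 4). FosB peaks there stood within the best 0.379% to 5.88%, and the JunB peak within the best 0.884%. H3K27ac covered it after KCl alone (chr5:32336702-32339443, 2742 bp). Other Fosl2 sites in many KCl lists lay at -79.8 kb (7 of 11), and at -1.96 and +56.6 kb (5 of 11 each). The sites at -79.8 and +56.6 kb had no H3K27ac peak in either list and 1 combined c-Fos position each. Near the 3′ end, a site at +20 kb (chr5:32456551-32459449) was in 5 of 11 KCl lists and in no unstimulated list. Its broadest control peak, in the sc52 library of sample 5, measured 2691 bp, and the c-Fos shRNA library of that sample held one of 2796 bp.

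Jun had the fewest sites, and 3 of its 9 KCl sites overlapped a KCl H3K27ac peak, a share near the 33.7% of the genome. Besides the 5′ end, found in 8 of 11 KCl lists, the most shared sites were at +29.3 kb (chr4:94689962-94690992, 7 of 11), +73.8 kb (6 of 11), -52.4 kb (chr4:94771723-94772756, 6 of 11) and +51.5 kb (chr4:94667846-94668784, 5 of 11). The sites at +29.3, +51.5 and -52.4 kb each had a combined c-Fos position and were in no unstimulated list. Of these, the site at -52.4 kb lay in the H3K27ac peak found after KCl alone, and those at +29.3 and +51.5 kb had none. JunB was listed at +29.3 kb (best 25.4% of its list) and +26.7 kb (best 77.7%) of Jun, and not at the gene.

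Junb, whose product was immunoprecipitated in sample 4, had JunB peaks at 3 sites of its own locus in the 1 KCl library. They lay at -7.13 kb (chr8:87508796-87510862, best 5.57% of the JunB list), +42.4 kb and +44.8 kb, and the list had no peak at the gene. The site at -7.13 kb was also in all 6 c-Fos lists, within the best 1.32% to 57.7%, and in 3 of 4 FosB lists, within the best 2.59% to 34.3%. It was in 10 of 11 KCl lists and in no unstimulated list. It lies within the distal H3K27ac peak that widened 2.14 times. The merged site over the gene (chr8:87497997-87504301) was in 7 of 11 KCl lists, 1 of 4 unstimulated c-Fos lists and 1 of 2 unstimulated FosB lists. The site at +42.4 kb was in 8 of 11 KCl lists, and that at +44.8 kb in 6 of 11 with the one combined c-Fos position of the locus. That position (87457911) lay outside the KCl H3K27ac peak, whose edge the site overlapped.

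The deposited list of 11830 distal positions with CBP and H3K4me1, marks of enhancers, is named as coming from Kim et al. and had 2 entries at these genes, both at Fosl2. Both were in the class with increasing H3K27ac, which held 12.4% of the list. The first (position 32338290 on chromosome 5) lay 29 bp from the combined c-Fos position 32338319, inside the site at -99.6 kb, and so in peaks of all 11 KCl lists, as were 9.13% of 1468 increasing enhancers. The second (position 32346725, at -91.3 kb) was in 2 of 6 c-Fos and 2 of 4 FosB lists after KCl, in no unstimulated list and not in the JunB list. At least 4 of the 11 lists covered 59.9% of increasing enhancers. An H3K27ac peak found after KCl alone covered it too (chr5:32345519-32348131, 2613 bp). Fosb, Junb and Jun had no such position within 100 kb, as in 45.8% of 5527 genome bins of 200 kb with a non-distal KCl H3K27ac peak. Their KCl-alone and widened distal acetylation therefore lay outside the authors' enhancer classes.

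The 100 kb limit decided several of these entries. The Fosl2 enhancer at position 32338290 lay 0.290 kb inside it, and the next 2 outside, 151 and 152 kb from the gene, were also of the increasing class, the nearer in 10 of 11 KCl lists and the farther in none. The nearest enhancer position lay 324 kb from Fosb, 142 kb from Junb and 132 kb from Jun, and these 3 were in none of the 4 classes. The next lay 624 kb from Fosb (increasing, in 10 of 11 KCl lists), 163 kb from Junb (constant, 9 of 11) and 133 kb from Jun (constant, in none). For AP-1 sites, the one at +81.6 kb of Fosb lay 72.8 kb from the gene, and the next beyond the limit on that side lay 125 kb from it in 5 of 11 lists.

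With shRNA against c-Fos, c-Fos peaks at the AP-1 gene loci were fewer in both biological samples. Sample 5 held 38 with control shRNA and 24 with c-Fos shRNA, and sample 6 held 18 and 5. The paired differences were -14 and -13, close to each other. The mean difference of -13.5 had an exact permutation p of 0.667 (n = 2 and 2; smallest possible p 0.333) and a paired exact sign-flip p of 0.5, the smallest possible. Over the whole genome the lists went from 23578 to 7808 peaks in sample 5 and from 19131 to 1793 in sample 6. With lists of equal length in the comparison (1793 best-scoring peaks) the difference was 2.50 in the other direction. The peak density over the loci was 5.11 and 2.98 times that of the genome with control shRNA (samples 5 and 6) and 9.75 and 8.85 times with c-Fos shRNA. Of the control peaks at the loci, 18 of 38 in sample 5 and 4 of 18 in sample 6 were also listed with c-Fos shRNA, that is 47.4% and 22.2% against 22.5% and 5.45% of all control peaks. By locus, with no test of the difference, Junb kept 7 of 11 and 0 of 4 control peaks, Fosb 5 of 13 and 3 of 4, Fosl2 4 of 8 and 0 of 7, and Jun 2 of 6 and 1 of 3.

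Sites kept with c-Fos shRNA included some that were listed without stimulation. The Fosb site at +81.6 kb and the 5′ site of Jun were in both control shRNA lists, both c-Fos shRNA lists and at least 1 unstimulated list. The gene site of Junb was in both c-Fos shRNA lists, but of the control shRNA lists only in that of sample 5. Both c-Fos shRNA lists overlapped 12.4% of non-distal KCl H3K27ac peaks, counted anywhere in the H3K27ac peak. The Fosb site at -35.2 kb was in both control and both c-Fos shRNA lists and in no unstimulated list. The Fosl2 sites at -99.6 kb and at the 5′ end and the Junb site at -7.13 kb were in the c-Fos shRNA list of sample 5 and not in that of sample 6. At -99.6 kb the peak of sample 5 was number 227 of 23578 in the control list and number 2223 of 7808 in the shRNA list, and ranks in lists of different length show no change.

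With shRNA against FosB, FosB peaks at the loci numbered 28 with control and 22 with FosB shRNA in sample 5, and 5 and 3 in sample 6. The paired differences were -6 and -2, and the mean difference of -4.00 had an exact permutation p of 0.667 (n = 2 and 2) and a paired exact sign-flip p of 0.5, the smallest possible. With lists of the same length it turned to 0.5 peak higher with FosB shRNA. Also listed with FosB shRNA were 11 of 28 control peaks (39.3% against 27.9% of all control peaks) and 1 of 5 (20% against 30.1%). FosB self-binding at the Fosb 5′ end, seen with control shRNA in sample 5, was in neither FosB shRNA list. At the 5′ ends of Junb and Jun both FosB shRNA lists had a peak, and at Fosl2 that of sample 5 alone. Both FosB shRNA lists overlapped 2.12% of non-distal KCl H3K27ac peaks, counted anywhere in the H3K27ac peak. At the Junb locus sample 5 held 5 FosB peaks with control and 7 with FosB shRNA. At the gene and 1 kb beside it they included 1 control peak of 3716 bp, against 3 narrower peaks with FosB shRNA. The median peak width in sample 5 was 767 bp in the control list and 221 bp in the FosB shRNA list, so peak counts are not counts of sites. With peaks within 500 bp merged, the mean difference over the 4 loci was -6.50. The FosB lists of sample 6 held too few peaks at the loci, 5 and 3, for their sites to be compared.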

How the data were processed

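The deposited ChIP-seq peak lists were used as the authors made them. Reads were aligned with BWA to mm9, per the submitters' processing notes, and the peak names begin with MACS, per the deposited files; the sources used here give no versions, control libraries or filters. Each of the 22 AP-1 lists was called on 1 library, and each H3K27ac list on 2 biological samples merged, per the labels. Peaks carry a score deposited by the authors, used only to describe, rank or filter peaks within a list; the lowest in the AP-1 lists is 50.0. The other deposited lists give positions with no value (combined c-Fos sites, CBP and H3K4me1 sites, and their H3K27ac classes). The name of the CBP and H3K4me1 list credits Kim et al., and that of the combined c-Fos list carries a code left unexplained; the sources used here give no further account of how these lists were made. The lists hold no reads, so depth and the precision it gives are unknown.

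Peaks overlapping a gene or 100 kb on either side by at least 1 bp were counted per list, with coordinates 1-based. Peak numbers were compared by two-sided exact permutation tests, with Benjamini-Hochberg adjustment over the 4 loci and a threshold of 0.05, after a test of the counting on simulated data. The labels' numbers name biological samples, which pairs libraries across conditions, so a paired (replicate block) sign-flip test was also made; it changed the call for c-Fos peaks over the 4 loci. AP-1 sites are overlapping peaks of the 22 lists merged. Sites named overlap a gene or 1 kb beside it, or are the 4 others per locus in the most of 11 KCl lists (ties by mean rank); further sites (+37.6 kb of Fosb, +26.7 kb of Jun and -91.3 kb of Fosl2) were named after their values were seen. Non-distal H3K27ac peaks are those outside the authors' distal list. Genes, windows and tests were chosen with earlier results of these data known. Background shares come from the whole lists or from bins of 200 kb. Alternatives were windows of 50 and 200 kb, a score of at least 100, lists cut to the shortest in a comparison, peaks within 500 bp merged, peak centres, 50% overlap, 1 antibody and each biological sample left out. Promoters came from RefSeq (GRCm38.p6); no mm9 genome or annotation was used, and sequences of the peaks were not analysed here. Python 3.11.15, numpy 2.4.6, scipy 1.17.1 and matplotlib 3.10.9 were used.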

Additional observations from a re-analysis of the deposited data

Results flagged for a closer look

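c-Fos peaks at the Fosl2 locus without stimulation numbered 1 in the sc7202 library of biological sample 3 and 0 in the other 3 libraries. With 3 values tied at 0, any single count above 0 reaches the largest possible gap, so the flag rests on 1 peak and says nothing about that library. The peak lies at the Fosl2 5′ end (chr5:32437534-32438365), number 491 of 1770 in its list. It was the one such value among 10 groups examined; the usual chance rate of 1 in 20 does not hold for tied counts.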

How the results depend on the processing

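Of 103 alternative values, 85 kept their direction and their side of the threshold, 8 lost the call, 7 moved and 3 reversed. All 8 were of c-Fos peaks over the 4 loci, the one result that had passed. Comparisons of 2 against 2 libraries cannot reach the threshold, and the JunB, H3K27ac and enhancer values had no test. For these, staying on the same side of the threshold was fixed in advance. The call for c-Fos peaks over the 4 loci (20.2) was lost with windows of 200 kb (28, exact permutation p = 0.0571), with lists of the same length (1.00, p = 0.714), with the replicate block (20.2, exact sign-flip p = 0.125), with sc52 alone (17) or sc7202 alone (23.5), and without biological sample 3 or 4 (11 to 29.5, p = 0.333, the smallest possible for 2 against 2). Without the shortest list, unstimulated sc7202 of sample 4, an alternative chosen after seeing the data, it was 18.9 (exact permutation p = 0.0571). That is the smallest p possible for 3 against 4 libraries, so the call could not have been kept. The replicate block changed no other call. With lists of the same length the c-Fos difference was -0.750 at Fosb and 0 at Jun, the c-Fos shRNA difference 2.50, the FosB shRNA difference 0.5, and the JunB count after KCl 4. A score of at least 100 left 6 JunB peaks. H3K27ac peaks found after KCl alone numbered 4 within 50 kb, and 2 peaks were found without stimulation alone within 200 kb. Increasing enhancers numbered 0 within 50 kb and 4 within 200 kb. Except for list length and window size, which set these counts by construction, the cause was not tested. The unknown depth, 1 merged H3K27ac list per condition, 1 JunB library per condition and 2 biological samples per group limit every comparison, and input DNA was not analysed here.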
